A study of Mus musculus with 6 samples.

Results

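A set of 10 genes known from stem cells of the hair follicle (*Lgr5*, *Lgr6*, *Cd34*, *Sox9*, *Lhx2*, *Tcf7l1*, *Nfatc1*, *Cdh3*, *Itga6* and *Foxc1*) were followed in telogen dorsal skin with and without *Bmal1*, a transcription factor of the circadian clock. They are genes of the bulge and the secondary hair germ, except *Lgr6*, which marks the isthmus above the bulge. Some, such as *Cd34* and *Itga6*, are also found in other skin cells. They were chosen by name, as genes known for these compartments, with earlier results of these data known. All 10 have exactly 1 probe set that the platform annotation gives to that gene alone, out of 19938 genes that have such a probe set. The skin came from 3 *Bmal1*+/- mice, which served as controls although they carry 1 mutated allele, and from 3 *Bmal1*-/- littermates, all on a C57BL/6J background, about postnatal day 22 and staged by histology as resting. *Bmal1*+/- replicate 1 is the only mouse labelled male, and the labels date it both to postnatal day 22 and to day 23, while the other 5 mice are labelled female. The mutation is a null allele carried in every tissue, and each array holds the RNA of whole skin from 1 mouse.

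At the end of each hair growth cycle the follicle regresses to a short resting structure. The bulge, beside the club hair, keeps slowly dividing stem cells, and the secondary hair germ just below it holds the precursors that divide first when growth restarts. LGR5 and LGR6 are receptors for R-spondins that raise Wnt signalling, CD34, α6 integrin and P-cadherin are surface proteins by which these cells are recognised, and SOX9, LHX2, TCF7L1 (formerly TCF3), NFATC1 and FOXC1 are transcription factors of stem cell identity or quiescence. The comparison asks whether these genes differ between the genotypes while the follicles rest.

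The deposited values are linear intensities of probe sets, with median intensities of 219 to 235.5 on the 6 arrays. The targeted gene, listed as *Arntl* (probe set 10556463), read 325, 365 and 355 in control and 569, 609.8 and 664 in mutant skin. No source used here places its probes relative to the deletion, so these values do not check the genotype. Of 6 clock genes taken as a check, 4 fell and 2 rose, each with groups that did not overlap. *Nr1d2*, a repressor of the clock, had a log2 fold change of -3.27 and *Cry1*, also a repressor, one of 1.15 (adjusted p = 6.2e-06 and 2.6e-05 from limma). The signal of a gene that is not there can be read from 3 Y-linked probe sets, which lay between 7.66 and 121 in the 5 female mice. Every value of the 10 stem cell genes lay above this range, from 321 to 5256, and so did those of *Krt15* (7356 to 8880), the bulge keratin, and of the other bulge markers *Dkk3* and *Tnc*.

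None of the 10 genes passed the test between genotypes at an adjusted p under 0.05 (limma with an intensity trend on log2(intensity + 16), *Bmal1*-/- minus *Bmal1*+/-, two-sided, Benjamini-Hochberg over 23410 probe sets), where 0.231% of all tested probe sets did. At an unadjusted limma p under 0.05 there were 2, *Lgr6* and *Cd34*, against 8.77% of all probe sets, and under 0.001 there were 0, against 0.649%. The study set its threshold of 0.001 on p-values of Cyber-T, its program, and not of limma. A regularised test built after Cyber-T called 1, *Lgr6* (adjusted p = 0.038), against 1.17% of all probe sets. With it 1 of the 10 genes was at an unadjusted p under 0.001, and the share of all probe sets there was not computed. On simulated arrays this second test made more false calls than its threshold allows, which limma did not. Each simulated probe set took its own observed spread as its true spread, so the rate of false calls on the real arrays may differ. The calls of this second test are given for completeness and carry less weight. The log2 fold changes were negative for 5 genes and positive for 5, where 45.3% of all tested probe sets were negative. They ran from -0.37 for *Lgr6* to 0.12 for *Sox9*, with a median of -0.035 over the 10 genes (0.0042 without *Bmal1*+/- replicate 1) and of 0.014 over all tested probe sets. For *Lgr6* and *Cd34* all mutants had lower values than all controls, as 7.68% of all tested probe sets did, and for no member did all mutants have higher values, as 6.99% did. An exact permutation test of 3 mice against 3 cannot go below 0.1, and it gave that value for these 2 genes and 0.2 to 1.0 for the other 8. In whole skin, fewer cells of a type and less RNA in each such cell cannot be told apart.

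**Figure D1:**
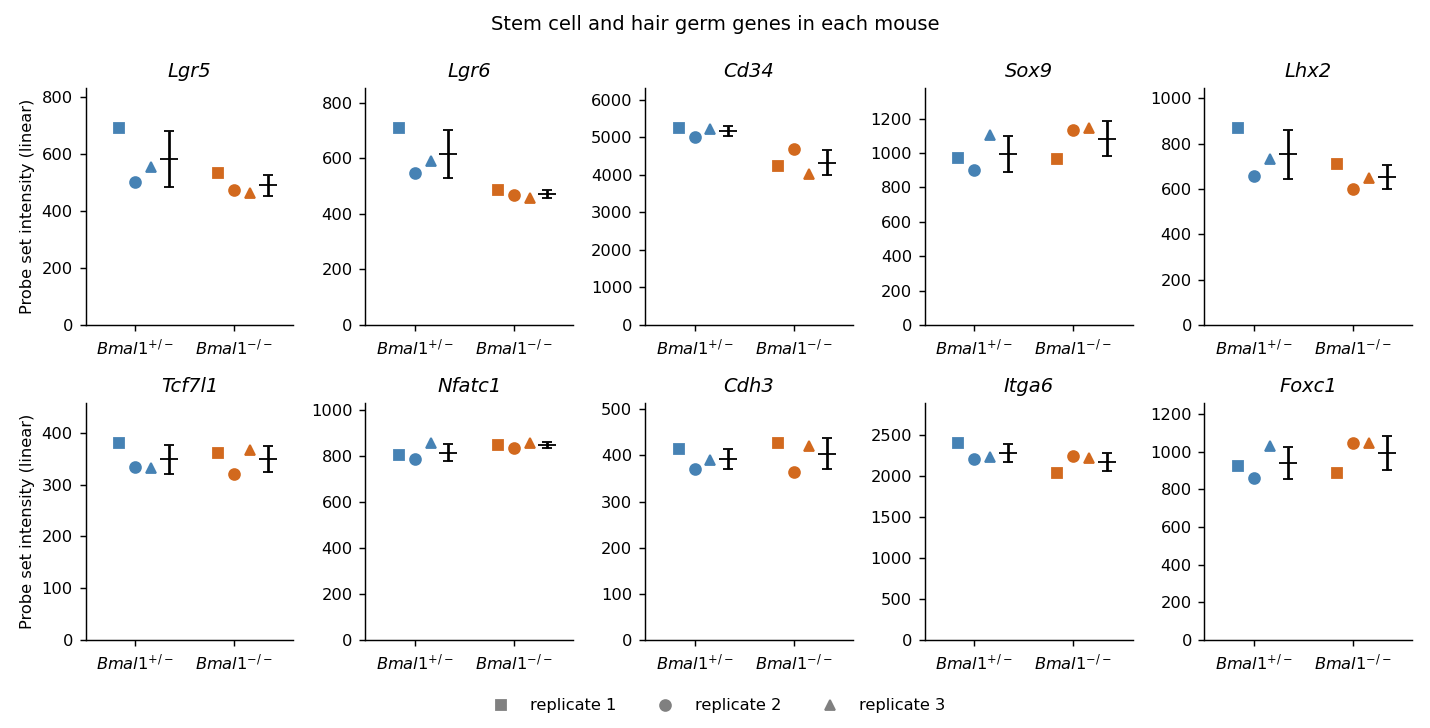
Deposited probe set intensity (vertical axis, linear, from 0) of each gene in each mouse (points, shaped by replicate number), and for each genotype the mean (horizontal mark) with its SD (bar, n = 3). The 3 *Bmal1*-/- mice lie below all 3 *Bmal1*+/- mice for *Lgr6* and *Cd34*, and the genotypes overlap for the other 8 genes.

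BMAL1 binds DNA with CLOCK at E-boxes, so the promoter letters of the members were read as well. RefSeq windows of 300 bases, from 250 before to 50 after a transcription start (GRCm38.p6), were at hand for 5 members, *Lgr6*, *Cd34*, *Lhx2*, *Tcf7l1* and *Foxc1*, with 6 windows in all. The letters searched on both strands do not occur within each other. The E-box CACGTG was in 0 of the 6, against 7.15% of 32851 windows of all genes. The related letters CACGTT, read on either strand, were in 0 of the 6, against 4.68%. This says only that these letters are not in these windows. Of the 6 clock genes used as a check, each with 1 window, 1 held CACGTG (*Cry1*). The windows of *Lgr6* and *Cd34*, whose intensities separated the genotypes, are shown 5′ to 3′ on the strand of the gene with CpG dinucleotides in capitals. That of *Lgr6* lies at chr1:135105227-135105526 on the minus strand with 24 CpG, and that of *Cd34* at chr1:194938571-194938870 on the plus strand with 7 CpG, against a median of 7 over all windows.
Lgr6: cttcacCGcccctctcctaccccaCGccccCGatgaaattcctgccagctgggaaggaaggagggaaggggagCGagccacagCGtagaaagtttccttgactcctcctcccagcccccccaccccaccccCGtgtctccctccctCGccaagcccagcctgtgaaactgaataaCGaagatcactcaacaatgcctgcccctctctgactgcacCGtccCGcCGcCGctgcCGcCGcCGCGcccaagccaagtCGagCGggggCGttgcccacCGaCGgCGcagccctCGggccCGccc
Cd34: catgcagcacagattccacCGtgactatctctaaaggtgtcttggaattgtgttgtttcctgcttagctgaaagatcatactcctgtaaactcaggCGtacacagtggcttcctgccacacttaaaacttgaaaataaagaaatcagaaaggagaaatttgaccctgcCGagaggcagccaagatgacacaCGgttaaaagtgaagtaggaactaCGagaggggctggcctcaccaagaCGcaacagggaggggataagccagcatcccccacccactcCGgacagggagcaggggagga

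Both LGR receptors read lower on average in *Bmal1*-/- skin, without passing the test. *Lgr6* (probe set 10357965), which marks stem cells of the isthmus above the bulge, measured 709.9, 545 and 589.7 in *Bmal1*+/- and 486, 467 and 457 in *Bmal1*-/- skin. The groups were separate, and most of the spread was among the *Bmal1*+/- mice (615 ± 85.1, SD, n = 3, against 470.1 ± 14.8). Its log2 fold change was -0.37 (SE 0.09, 95% confidence interval -0.58 to -0.16, adjusted p = 0.25 from limma), the largest of the 10. *Lgr5* (probe set 10372503), the marker of the hair germ and lower bulge, read 691, 500.4 and 553 in *Bmal1*+/- and 532, 474 and 464 in *Bmal1*-/- skin. Here 1 *Bmal1*-/- mouse, replicate 1, lay above *Bmal1*+/- replicate 2, so the groups overlapped. The log2 fold change of *Lgr5* was -0.23 (SE 0.11, 95% confidence interval -0.48 to 0.023, adjusted p = 0.60).

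Both receptors had their highest value in *Bmal1*+/- replicate 1, the male mouse. Without it *Lgr5* had a log2 fold change of -0.10 (adjusted p = 0.91 from limma) in place of -0.23. *Lgr6* had -0.26 (adjusted p = 0.50) in place of -0.37, and its 5 female mice were still separate by genotype, with means of 568 in 2 *Bmal1*+/- and 470.1 in 3 *Bmal1*-/- mice, an order that 11.8% of all tested probe sets had among these 5 mice. Whether sex or the uncertain day has a part in this was not tested, since only 1 mouse carries either label.

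The rest of the LGR pathway was measured by 8 genes, of which 0 passed with limma, 0 with the Cyber-T type test and 4 were at an unadjusted p under 0.05, against 8.77% of all probe sets. Their log2 fold changes were negative for 6 genes and positive for 2, with a median of -0.17. The positive ones, *Rspo2* (73.1 to 87.9) and *Rspo4* (63.0 to 90.2), lay within the 7.66 to 121 read for absent genes. *Rnf43*, a ubiquitin ligase that removes Wnt receptors from the surface and that R-spondins inhibit, read 319, 339.6 and 314 in *Bmal1*+/- and 232, 272 and 259 in *Bmal1*-/- skin, a log2 fold change of -0.33 with an SE of 0.08 (adjusted p = 0.24 from limma). The ligand *Rspo3* had the most negative value, -0.37 (adjusted p = 0.41; -0.24 without *Bmal1*+/- replicate 1), with 212, 149.6 and 170 against 125, 137 and 135. Its *Bmal1*-/- values were just above the range of absent genes. *Lgr4*, the broadly expressed relative of both receptors, had -0.19 (adjusted p = 0.46), and *Axin2*, a general target of Wnt signalling, had -0.074 (adjusted p = 0.82). For *Rnf43*, *Rspo1*, *Rspo3* and *Lgr4*, 4 of the 8, all *Bmal1*-/- mice lay below all *Bmal1*+/- mice, as they did for 7.68% of all probe sets.

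Of the surface proteins, *Cd34* stood apart from *Itga6* and *Cdh3*. *Cd34* (probe set 10352905), the sialomucin used to sort bulge cells, measured 5256, 5015 and 5231 in *Bmal1*+/- and 4248, 4703 and 4036 in *Bmal1*-/- skin. The *Bmal1*+/- mice lay within a narrow range and the *Bmal1*-/- mice below it, with means of 5167 ± 133 and 4329 ± 341 (SD, n = 3). The log2 fold change was -0.26 (SE 0.06, 95% confidence interval -0.40 to -0.11, adjusted p = 0.24 from limma). It stayed between -0.32 and -0.21 over 19 other settings of the fit, none of which called it, and was -0.24 without the male mouse. Several of these settings change only the test and cannot move the estimate.

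CD34 is also found on endothelial cells, dermal fibroblasts and mast cells. Of 10 endothelial markers 0 passed with either test, 9 had a positive log2 fold change and 1 a negative one, and their summed intensity was 5462 to 5881 in *Bmal1*+/- and 5786 to 7310 in *Bmal1*-/- mice. All 10 had their highest value in *Bmal1*-/- replicate 3, the mouse with the lowest *Cd34*, and without it 6 were positive and 4 negative. The largest value was that of *Egfl7*, an endothelial secreted protein, with a log2 fold change of 0.34 (adjusted p = 0.29 from limma). Of 8 fibroblast markers 0 passed with limma and 1 with the Cyber-T type test, 7 had a negative log2 fold change, and the sum was 74812 to 82269 in *Bmal1*+/- and 68386 to 76141 in *Bmal1*-/- mice. Among these *Pi16*, a marker of a fibroblast population that also carries CD34, read 562, 743 and 637 against 373, 476 and 458, a log2 fold change of -0.55 (adjusted p = 0.15). All markers of both lists read above the 7.66 to 121 of absent genes in every mouse, and their part in the value of *Cd34* was not tested. Of 10 immune markers, mast cell proteases among them, 0 passed with either test and the sum was 14492 to 14754 against 12682 to 15273.

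The adhesion genes of the basal layer and the germ did not separate the genotypes. *Itga6* (probe set 10472820), the integrin chain that anchors basal and bulge cells to the basement membrane, read 2406, 2207 and 2232 in *Bmal1*+/- and 2039, 2248 and 2213 in *Bmal1*-/- skin. Its single highest value was in a *Bmal1*+/- mouse and its lowest in a *Bmal1*-/- mouse, and the other 4 lay within 2207 to 2248. The log2 fold change was -0.074 (SE 0.06, 95% confidence interval -0.21 to 0.065, adjusted p = 0.77 from limma). *Cdh3* (probe set 10575034), which encodes P-cadherin and is strong in the hair germ, read 413, 370 and 391 in *Bmal1*+/- and 428, 364 and 419.8 in *Bmal1*-/- skin. Both the highest and the lowest value belonged to *Bmal1*-/- mice, and the log2 fold change was 0.042 (SE 0.08, 95% confidence interval -0.15 to 0.23, adjusted p = 0.91).

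The partners of these adhesion proteins gave a mixed picture. Of 10 hemidesmosome and basement membrane genes 0 passed with limma and 1 with the Cyber-T type test, with 5 log2 fold changes negative and 5 positive and a median of -0.0024. *Itgb4*, which pairs with *Itga6* in hemidesmosomes, read 1159, 1072 and 1063 in *Bmal1*+/- and 1171, 1069 and 1067 in *Bmal1*-/- skin, a log2 fold change of 0.0054 (SE 0.06). *Itga3*, another laminin-binding integrin chain, read 426, 394 and 436 against 563, 506.5 and 558. It was higher in every *Bmal1*-/- mouse, with a log2 fold change of 0.36 with an SE of 0.07 (adjusted p = 0.13 from limma), and was the gene that the Cyber-T type test called. Of the 6 adherens junction genes 0 passed with either test and 0 were at an unadjusted p under 0.05, with the largest value at -0.10 for *Ctnnb1*, β-catenin (adjusted p = 0.69), and -0.0026 for *Cdh1*, the E-cadherin of the epidermis.

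None of the 5 transcription factors passed the test, and for each of them the genotypes overlapped. *Sox9* (probe set 10382328), needed to form and keep the bulge, read 970.8, 904 and 1107 in *Bmal1*+/- and 965, 1135 and 1147 in *Bmal1*-/- skin. The lowest value was in a *Bmal1*+/- mouse and the highest in a *Bmal1*-/- mouse, the ranges overlapped from 965 to 1107, and the log2 fold change was 0.12 (SE 0.09, 95% confidence interval -0.085 to 0.33, adjusted p = 0.74 from limma). *Foxc1* (probe set 10404407), known for holding bulge cells in quiescence, read 926, 863 and 1031 in *Bmal1*+/- and 890.0, 1046 and 1049 in *Bmal1*-/- skin, a log2 fold change of 0.081 (SE 0.09, 95% confidence interval -0.12 to 0.28, adjusted p = 0.83). These genes ordered the 6 mice identically.

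*Nfatc1* (probe set 10459944), which restrains division in bulge cells, varied least of the 10 by the ratio of its extremes. It read 802, 785 and 857 in *Bmal1*+/- and 848, 833 and 858 in *Bmal1*-/- skin, so that its highest value was 1.09 times its lowest. Its log2 fold change was 0.054 (SE 0.06, 95% confidence interval -0.081 to 0.19, adjusted p = 0.83 from limma), an interval that in fold runs from 0.945 to 1.14. Of 10 genes of the NFAT family, calcineurin and the pathways around them, 0 passed with either test. Among these *Cdk4*, the G1 kinase, had a log2 fold change of -0.18 (adjusted p = 0.42), and *Nfatc2*, a relative of *Nfatc1*, the most negative one at -0.19 (adjusted p = 0.51).

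*Lhx2* (probe set 10471833), which maintains the bulge and its adhesion, read 869.7, 658 and 731 in *Bmal1*+/- and 709, 602 and 647 in *Bmal1*-/- skin. Its highest value, like that of *Lgr5*, was in the male *Bmal1*+/- mouse, while *Bmal1*-/- replicate 1 lay above *Bmal1*+/- replicate 2. The log2 fold change was -0.20 (SE 0.10, 95% confidence interval -0.43 to 0.037, adjusted p = 0.63 from limma), and -0.089 (adjusted p = 0.93) without the male mouse. *Tcf7l1* (probe set 10545458), a repressor of Wnt targets in resting bulge cells, read 381, 334 and 332 in *Bmal1*+/- and 361, 321 and 367 in *Bmal1*-/- skin. Its means, 349 ± 28.1 and 350 ± 24.9 (SD, n = 3), were the closest of the 10, with a log2 fold change of 0.0041 (SE 0.09, 95% confidence interval -0.19 to 0.20, adjusted p = 0.99).

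Among the 7 measured TCF, LEF and corepressor genes 0 passed with either test, and *Lef1*, the factor through which Wnt signals activate genes in the growing follicle, had the largest change. It read 495, 375 and 398 in *Bmal1*+/- and 311, 343 and 299.6 in *Bmal1*-/- skin, a log2 fold change of -0.39 with an SE of 0.11 (adjusted p = 0.30 from limma). Without *Bmal1*+/- replicate 1, where it was highest, *Lef1* had -0.27. Of 15 relatives and cofactors of the SOX, LHX and FOX members 0 passed with either test and 0 were at an unadjusted p under 0.05. *Foxi3*, a forkhead factor of the hair germ, had the largest value among these, -0.24 (adjusted p = 0.67), with 649.96 in *Bmal1*+/- replicate 1 and 390 to 502 elsewhere, and -0.064 when this mouse is left out.

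**Figure D2:**
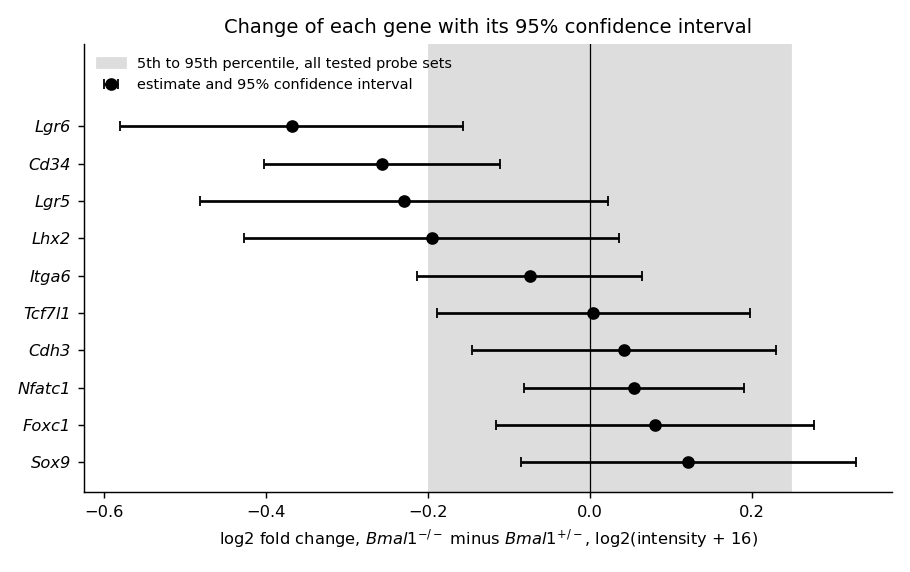
Log2 fold change (horizontal axis, *Bmal1*-/- minus *Bmal1*+/-, on log2(intensity + 16)) of each gene (points) with its 95% confidence interval (bars, n = 3 mice of each genotype), and the 5th to 95th percentile of all 23410 tested probe sets (grey band, -0.20 to 0.25). The intervals of *Lgr6* and *Cd34* lie below 0 before adjustment for the number of tests, and the other 8 include 0.

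The confidence intervals say which changes these arrays leave possible. They reached from -0.58 for *Lgr6* to 0.33 for *Sox9* on the log2 scale, which in fold is from 0.669 to 1.26, so a change by a factor of 2 lies outside all 10 unadjusted intervals. An interval that includes 0 does not show that a gene did not change. For *Lgr5* the interval in fold ran from 0.716 to 1.02, and for *Tcf7l1* from 0.877 to 1.15.

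To compare mice across genes, each gene was centred on its own mean over the 6 mice. *Bmal1*+/- replicate 1 then held the highest value for 6 of the 10 genes (*Lgr5*, *Lgr6*, *Cd34*, *Lhx2*, *Tcf7l1* and *Itga6*), while 15.8% of all tested probe sets had their highest value in this mouse. *Bmal1*-/- replicate 3 was highest for 3 genes (*Sox9*, *Foxc1* and *Nfatc1*) and *Bmal1*-/- replicate 1 for *Cdh3*. The largest deviations of any gene were 0.39 for *Lgr6*, 0.37 for *Lgr5* and 0.31 for *Lhx2*, all in *Bmal1*+/- replicate 1. In other lists this mouse was also highest for 7 of 12 hair germ activation and matrix genes, 6 of 7 TCF and LEF partners, 5 of 6 melanocyte genes and 5 of 8 fibroblast genes. It was highest for 3 of 15 other bulge genes and for 0 of 10 endothelial, 12 dermal papilla, 7 sebaceous, 7 striated muscle, 5 adipocyte and 5 suprabasal genes.

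**Figure D3:**
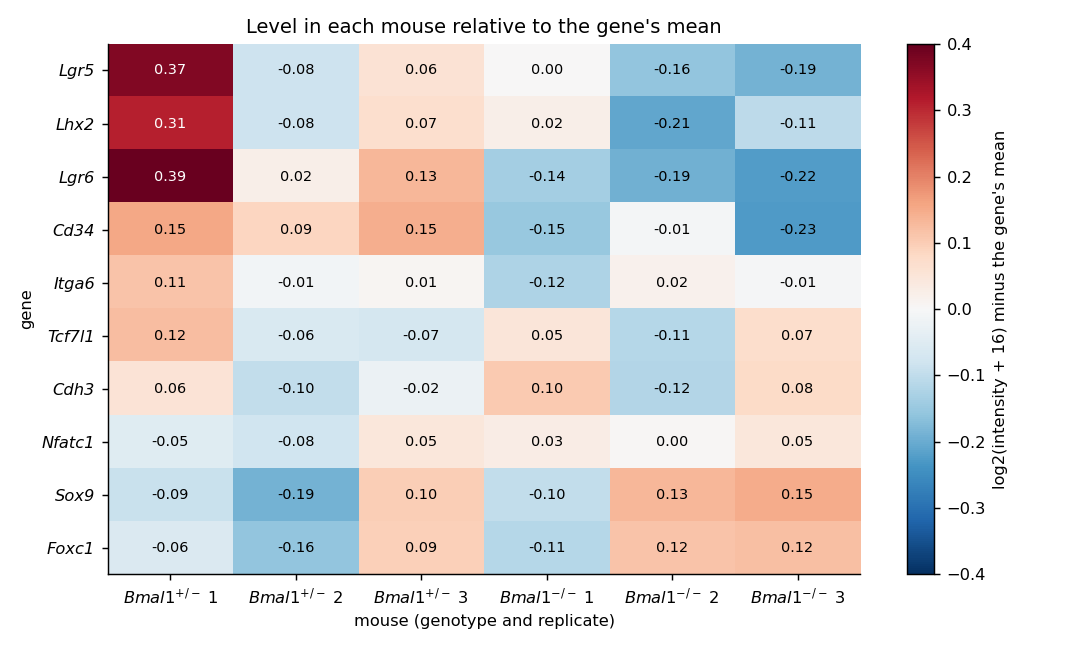
Level of each gene (rows) in each mouse (columns, genotype and replicate number) as log2(intensity + 16) minus the mean of that gene over the 6 mice (colour and printed value). *Lgr5*, *Lhx2* and *Lgr6* are highest in *Bmal1*+/- replicate 1, at 0.31 to 0.39, and *Sox9* and *Foxc1* share another order of mice.

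Some pairs followed each other closely over the 6 mice. Of 45 pairs, 3 had a Pearson r above 0.9, and the range over all pairs was -0.55 to 0.99. These values are descriptions, since each pair shares the same 6 arrays with their genotype and scaling, and the pairs were singled out after their values were seen. *Sox9* and *Foxc1* had r = 0.99 (Spearman rho 1), and r = 0.98 without the 2 mice farthest from the median of *Sox9*. *Lgr5* and *Lhx2* had r = 0.97 (rho 0.94), and 0.99 without the 2 mice farthest from the median of *Lgr5*. *Lgr5* and *Lgr6* had r = 0.93 (rho 0.94), which was 0.66 without those 2 mice, and *Tcf7l1* and *Cdh3* had r = 0.87 (rho 0.71). At the other end *Cd34* and *Nfatc1* had r = -0.55 (rho -0.54), which was -0.022 without 2 mice. The genes most like the mean of all 10, among 12382 candidates of more than median intensity, were *Socs5* (r = 0.99), *Tfap2c* (r = 0.99), a transcription factor of ectoderm, and *Gtf2ird1* (r = 0.99), and without 2 mice these values were 0.88, 0.68 and 0.96. Picking the best of so many candidates over 6 mice gives high values in itself, and the 10 genes did not share a common pattern.

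**Figure D4:**
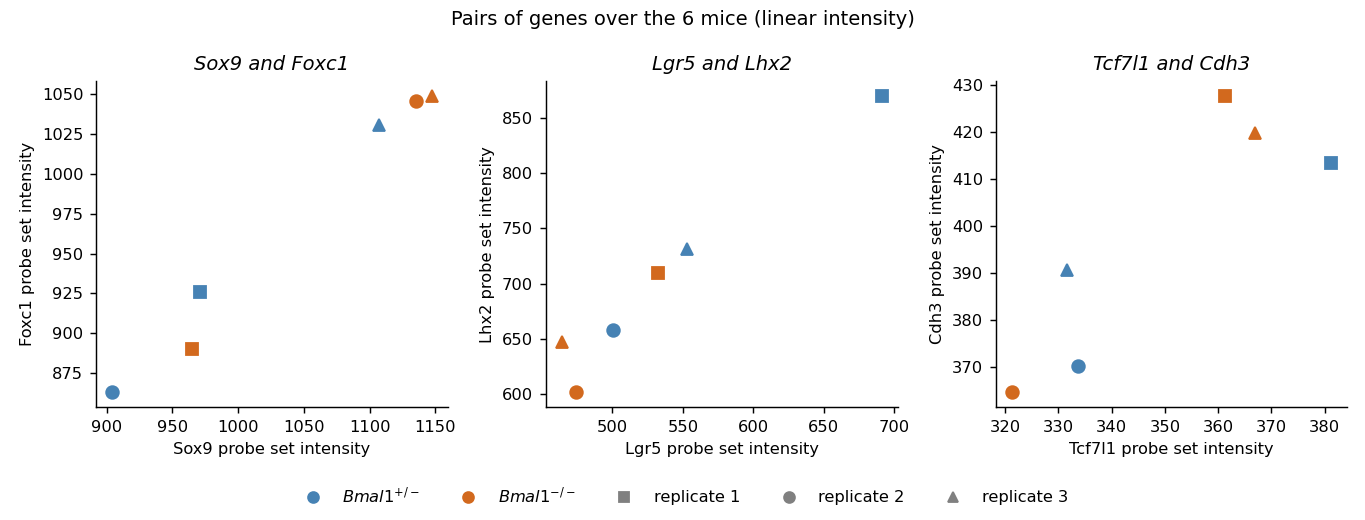
Probe set intensity of one gene against another over the 6 mice, for *Sox9* and *Foxc1*, *Lgr5* and *Lhx2*, and *Tcf7l1* and *Cdh3* (linear axes that do not start at 0, colour for genotype, shape for replicate number). *Sox9* and *Foxc1* place the mice in the same order, with *Bmal1*+/- replicate 2 lowest and *Bmal1*-/- replicate 3 highest, and the *Lgr5* axis ends at the male *Bmal1*+/- mouse at 691.

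The other genes of the follicle likewise held none that passed with limma. Of 15 further bulge genes 12 had a negative and 3 a positive log2 fold change, with a median of -0.064, where 45.3% of all tested probe sets were negative. Leaving out 1 mouse gave from 14 negative and 1 positive (without *Bmal1*+/- replicate 2) to 9 and 6 (without *Bmal1*+/- replicate 3). At an unadjusted p under 0.05 there were 3, against 8.77% of all tested probe sets, and the Cyber-T type test called 1. That was *Wif1*, a secreted Wnt inhibitor, with 458, 426 and 466 in *Bmal1*+/- and 356, 324 and 257 in *Bmal1*-/- skin, a log2 fold change of -0.52 with an SE of 0.11 (adjusted p = 0.15 from limma). *Krt15* had -0.064 (SE 0.08, adjusted p = 0.84). Of 12 genes of hair germ activation and matrix 9 were negative and 3 positive, with a median of -0.11. Leaving out 1 mouse gave from 10 negative and 2 positive (without *Bmal1*+/- replicate 2) to 7 and 5 (without *Bmal1*-/- replicate 3). Of the 12, 3 were at an unadjusted p under 0.05 and 1 was called by the Cyber-T type test. That was *Gli1*, the target and effector of Hedgehog signalling, with 411, 314 and 312 against 253, 260.3 and 241, a log2 fold change of -0.43 with an SE of 0.11 (adjusted p = 0.25 from limma). Without *Bmal1*+/- replicate 1, where it was highest, *Gli1* had -0.30. *Shh*, the ligand that drives growth of the germ, had -0.089 (adjusted p = 0.87), and *Plet1*, of the upper follicle, 0.21 (adjusted p = 0.56).

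Markers of the whole epithelium and of dividing cells stood beside these values. The summed intensity of 6 basal keratinocyte genes was 25422 to 27504 in *Bmal1*+/- and 23315 to 25333 in *Bmal1*-/- mice, with a median log2 fold change of -0.097 and 0 called by either test. *Col17a1*, the hemidesmosome collagen of basal and bulge cells, had the largest, -0.15 (adjusted p = 0.51 from limma). Of 9 proliferation genes 8 were negative, but without *Bmal1*-/- replicate 3, which had the lowest value of every one of the 9, 4 were negative and 5 positive. In the other 2 *Bmal1*-/- mice *Mki67* (416 and 458, against 326 to 348 in *Bmal1*+/-), *Top2a* and *Ccna2* read higher than in any *Bmal1*+/- mouse. *Mcm5* (333 and 287, against 367 to 399) and *Ccnd1* (826 and 801, against 999.5 to 1353) read lower there than in any *Bmal1*+/- mouse. The other genes of the list overlapped between the genotypes in these mice. This order was looked at after the values were seen, and its share over all probe sets was not counted. Of the 9, 0 passed with limma and 1 with the Cyber-T type test, *Ccnd1*, the G1 cyclin, with 1353, 999.5 and 1037 against 826, 801 and 765 (log2 fold change -0.48, adjusted p = 0.16 from limma). Without *Bmal1*+/- replicate 1, where it was highest, *Ccnd1* had -0.35. *Mcm5*, of the replicative helicase, had the most negative value, -0.54 (adjusted p = 0.40), with 183 in *Bmal1*-/- replicate 3 and 287 to 399 elsewhere, and -0.30 when this mouse is left out. Of 6 melanocyte genes, whose stem cells share the bulge and germ, 5 were negative, 0 passed with limma and 2 with the Cyber-T type test, *Dct* and *Tyrp1*. For 4 of them, *Dct*, *Tyr*, *Tyrp1* and *Pmel*, all *Bmal1*-/- mice lay below all *Bmal1*+/- mice, as for 7.68% of all tested probe sets. The same 4 were at an unadjusted limma p under 0.05, against 8.77%. *Tyr* (55.9 to 96.9) lay within the 7.66 to 121 read for absent genes. *Dct*, an enzyme of pigment synthesis, had a log2 fold change of -0.65 (adjusted p = 0.15 from limma), and -0.49 without *Bmal1*+/- replicate 1. Their part in the values of the 10 stem cell genes was not tested.

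Over all 177 genes of 21 such lists, each counted once, 0 passed with limma. At an unadjusted limma p under 0.05 there were 34 (19.2%), against 8.77% of all tested probe sets. At a limma p under 0.001 there were 4 (*Itga3*, *Pi16*, *Dct* and *Tyrp1*), against 0.649%. The Cyber-T type test called 7 of the 177, and 1.17% of all. All *Bmal1*-/- mice lay below all *Bmal1*+/- mice for 25 of the 177 (14.1%), against 7.68% of all tested probe sets. They lay above for 13 (7.34%), against 6.99%, and the median log2 fold change of the 177 was -0.050. The lists were chosen with earlier results of these data known, and their genes share the same 6 arrays. These shares are therefore descriptions. In the 7 lists of which no gene has been named so far 0 genes passed with limma. The largest value of each was taken, and 6 of these 7 moved by over 1.5 times without 1 mouse. *Lep*, the adipocyte hormone leptin, had -0.87 with 86.3 in *Bmal1*-/- replicate 1 and 467 to 689 elsewhere, and -0.029 when this mouse is left out, while the other 4 adipocyte genes were positive. *Fasn*, fatty acid synthase, had 0.28 in a sebaceous list with 5 of 7 genes negative, and -0.096 without the same mouse. Without it the values also moved from -0.32 to -0.17 for *Lepr* in the dermal papilla list, from -0.19 to -0.054 for *Cd68* among immune genes, from -0.27 to -0.016 for *Mb* among striated muscle genes and from -0.25 to -0.13 for *Krt28* among hair shaft and inner root sheath genes. *Ivl*, a suprabasal envelope protein, had 0.23 and stayed within 0.17 to 0.27 without any 1 mouse.

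**Figure D5:**
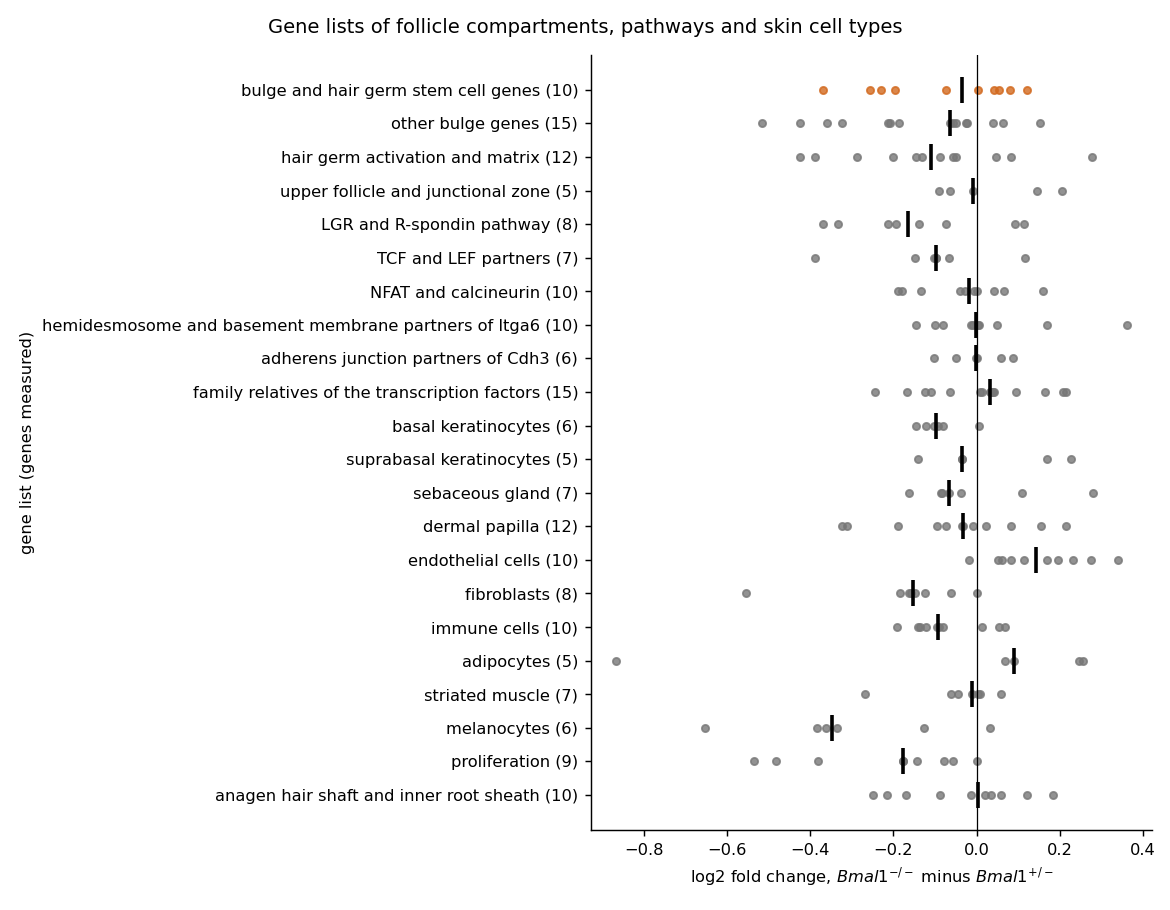
Log2 fold change (horizontal axis, *Bmal1*-/- minus *Bmal1*+/-, on log2(intensity + 16)) of every measured gene (points) in the 10 bulge and hair germ stem cell genes (top, orange) and in 21 other lists (grey), with each list's median (black mark) and the number of genes measured in brackets. The 10 genes straddle 0 with a median of -0.035, and no gene shown passed at an adjusted p under 0.05 with limma.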

How the data were processed

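RNA of dorsal skin from 6 mice was hybridised to Affymetrix Mouse Gene 1.0 ST arrays, with 1 array per mouse. The authors deposited one linear intensity value per probe set and array. The submitters' processing notes name PLIER 2.0 and Expression Console 1.1 of Affymetrix, and no source used here says how background and array scale were set. log2(intensity + 16) was computed without further normalization, and fold changes on this scale understate those of dim genes. Of 35557 probe sets, the 23410 with at least 1 annotated gene were fitted in limma 3.58.1 (R 4.3.3; lmFit, eBayes with an intensity trend), in place of Cyber-T, the study's program; a Cyber-T type test (window 101, prior weight 10) was an alternative. For a list gene with more than 1 probe set the brightest on average was taken; each of the 10 genes has 1. scipy 1.17.1 gave the exact permutation tests and matplotlib 3.10.9 the figures. Both tests were tried on data simulated with the observed mean and spread of each probe set. There limma kept its false calls near the threshold and the Cyber-T type test did not. The members and lists were chosen with earlier results of these data known. Named by rule were the 10 genes, 6 clock genes, from each list the called genes (at most 3) or else the one with the largest change, and the 3 brighter-than-median probe sets most correlated with the mean of the 10; other list genes are named for their role, after their values were seen. The number of arrays limits the precision. The 19 alternatives were 2 other offsets, quantile or median scaling, a minimum intensity of 100, all rows or single-gene rows, no trend or a robust prior, the Cyber-T type test, the replicate block, sex as a covariate, the dimmest probe set of a gene, and leaving out each array.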

Additional observations from a re-analysis of the deposited data

How the results depend on the processing

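The number of members called was 0 with limma under all alternatives run with it. With the Cyber-T type test it was 1, *Lgr6* (log2 fold change -0.37, adjusted p = 0.038), and the number at a p under 0.001 was 1. Leaving out 1 array gave 0 members called, and 0 to 1 at a p under 0.001, the 1 being *Cd34* without *Bmal1*-/- replicate 2. Over all probe sets, 31 lower and 23 higher became 19 and 15 with all rows of the table, 16 and 11 without the intensity trend, 177 and 96 with the Cyber-T type test, and 22 to 34 lower and 13 to 23 higher without 1 array (15 higher without *Bmal1*+/- replicate 2 or *Bmal1*-/- replicate 1, 13 without *Bmal1*-/- replicate 3).

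Several alternatives change the test of a member but cannot change its log2 fold change. These are the row filters, the variance models, the Cyber-T type test, the replicate block and the dimmest probe set. Of the 10 log2 fold changes 9 kept their sign under all 19 alternatives. That of *Tcf7l1*, 0.0041, turned to -0.025 without *Bmal1*+/- replicate 2, -0.029 without *Bmal1*+/- replicate 3, -0.019 without *Bmal1*-/- replicate 1 and -0.030 without *Bmal1*-/- replicate 3, and ranged from -0.030 to 0.067. Without 1 array *Lgr6* ranged from -0.45 to -0.26, *Lgr5* from -0.33 to -0.10 and *Lhx2* from -0.29 to -0.089, the least negative value of each being that without *Bmal1*+/- replicate 1; the fit with sex as a covariate gave the same 3 values. The labels do not say whether replicate numbers mark litters, and the deviations of mice with the same number correlated at 0.078, -0.35 and 0.056, so they were not taken as pairs. With the replicate number as a block 0 members were called, with 34 probe sets lower and 20 higher, *Lgr6* at -0.37 (adjusted p = 0.27 from limma) and *Lgr5* at -0.23 (adjusted p = 0.58), and no call on a member changed. With 3 mice per genotype a miss does not show that a gene did not change: *Lgr6* and *Cd34*, whose unadjusted intervals lie below 0, did not pass either.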
